A study of Drosophila melanogaster with 8 samples.

Results

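Zinc transporters of Drosophila melanogaster were followed in whole adult females that lacked normal function of the nuclear receptor gene Hr78 (DHR78). The members are 9 genes named in a list that was drawn up with earlier results of these data known: the ZnT genes ZnT35C (CG3994), ZnT41F (CG11163), ZnT63C (CG17723), ZnT77C (CG5130) and ZnT86D (CG6672), and the ZIP genes Zip42C.1 (CG9428), Zip42C.2 (CG9430), foi (CG6817) and Catsup (CG10449). All 9 are among the 12082 gene rows of the count table, and all 9 passed the filter on low counts that left 10525 genes for testing. Polyadenylated RNA was sequenced from 4 mutant and 4 control libraries. The mutants had the genotype btl>DHR78; DHR78[1]/[3], a pair of different Hr78 alleles over a transgene that expresses Hr78 through the btl (breathless) driver. The controls had the genotype btl>DHR78, so both groups carried the transgene. The driver follows a gene of the tracheal FGF receptor, so the transgene is expected mainly in tracheal cells, and the mutants are animals supplied with Hr78 there. The females were 1 week old, on food of 8% yeast and 9% sugar. RNA of 12 females was extracted per collection, and each library joins 2 of the 8 collections of a genotype.

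Zinc is moved across fly membranes by 2 protein families that work in opposite directions. ZnT proteins (cation diffusion facilitators) take zinc out of the cytosol, either out of the cell or into organelles, and ZIP proteins bring zinc into the cytosol. In flies, dietary zinc is taken up by midgut cells through ZIP proteins of the gut surface and passed on to the body by ZnT proteins, while the Malpighian tubules store and excrete zinc. Excess zinc is bound by metallothioneins, small proteins whose genes are switched on by the metal-sensing factor MTF-1.

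The libraries held 22608378 to 33054191 counts in mutants and 19544675 to 28106635 counts in controls, and 3 counts corresponded to 0.0916 to 0.155 CPM (counts relative to the TMM-scaled library total). Hr78 stood at 71.6 ± 1.71 CPM in mutants and 123 ± 4.22 CPM in controls (mean ± SD, n = 4 each), in counts that do not separate the transgene from the chromosomal gene. One library stood apart: the summed level of 10 male markers was 121 CPM in mutant replicate 2, against 3.07 to 3.69 CPM in the other mutants and 2.35 to 3.84 CPM in controls. Summed levels of 9 midgut markers were 1143 to 1595 CPM in mutants and 1841 to 3180 CPM in controls. Of the 9, 3 (alphaTry, Jon25Bii and Vha100-4) fell by edgeR, where 11.1% of all tested genes fell. At an unadjusted p under 0.05, 5 were lower, and DESeq2 called 5 lower. The largest part of the sum was alphaTry, at 708 ± 117 CPM in mutants and 1551 ± 414 CPM in controls (SD, n = 4 each). betaTry and Amy-p went the other way, with log2 fold changes of 0.40 and 0.03 (adjusted p 0.279 and 0.927, edgeR). Summed levels of 8 Malpighian tubule markers were 204 to 230 CPM in mutants and 222 to 260 CPM in controls, and 1 of the 8 (Ncc69) fell. The call of Ncc69 was lost without mutant replicate 2, 3 or 4 or control replicate 1, 3 or 4 (adjusted p 0.0588 to 0.0734, edgeR), and with upper quartile scaling (0.0562), the transcript length offset (0.241) or that offset with the replicate block (0.110). Its log2 fold change was -0.23, and -0.14 with the length offset. None of the midgut or tubule markers was at 0 in either genotype. In whole animals, fewer cells of a tissue and less RNA per cell cannot be told apart.

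Of the 9 zinc transporters, 3 had more transcript in the mutants and none had less. ZnT41F rose 1.70-fold, Zip42C.1 1.69-fold and ZnT77C 1.34-fold, each with an adjusted p under 0.05 by edgeR's quasi-likelihood test with Benjamini-Hochberg adjustment over all 10525 genes. The number that rose is 3 of 9, where 8.46% of all tested genes rose, and the number that fell is 0 of 9, where 11.1% of all tested genes fell (19.6% passed in either direction). Of all calls 43.1% were higher in the mutants, and 63.2% with upper quartile scaling, under which the same 3 members rose and none fell. At an unadjusted p under 0.05 the same test gave 3 members higher and 0 lower, and DESeq2 called 2 higher and 0 lower, leaving out Zip42C.1. The members' median log2 fold change (mutant over control) was 0.05, against 0.01 over all genes tested. Because the 9 genes were chosen with earlier results known, these shares are a description of the members only.

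**Figure D1:**
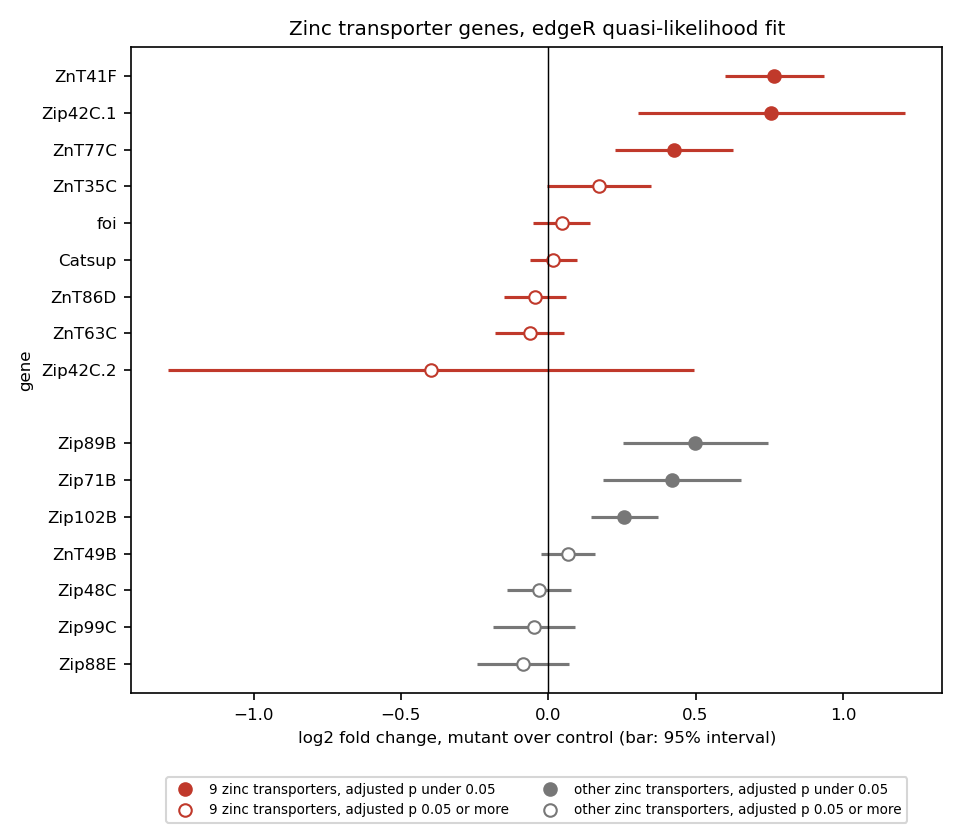
Log2 fold change (mutant over control, horizontal axis) of the 9 zinc transporters and of 7 other zinc transporter genes, with bars for the 95% interval; filled points have an adjusted p under 0.05 (edgeR). ZnT41F, Zip42C.1 and ZnT77C lie to the right of 0 at 0.77, 0.76 and 0.43, and the bar of Zip42C.2 is the widest.

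Of the 9 members, ZnT41F had the smallest adjusted p. It encodes a cation diffusion facilitator. Its levels were 24.2, 21.0, 22.1 and 22.1 CPM in mutant replicates 1 to 4, against 13.6, 11.7, 13.2 and 14.1 CPM in control replicates 1 to 4. Every mutant library lay above every control library, with a gap between the lowest mutant and the highest control that exceeded the range within either genotype. The mean was 22.4 ± 1.31 CPM in mutants and 13.2 ± 1.04 CPM in controls (SD, n = 4 each). On the log2 scale ZnT41F was 0.77 higher (standard error 0.08, 95% interval 0.60 to 0.93, adjusted p 0.000128 by edgeR). By an exact permutation of the library labels, two-sided, its p was 0.0286, which is the lowest possible with 4 libraries per genotype. All 4 mutant libraries lay above all 4 controls for 11.7% of the genes tested and below them for 13.2%.

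ZnT77C also rose, by less. It encodes a transporter related to ZnT63C, the zinc exporter of the gut. ZnT77C lies on chromosome arm 3L, as does Hr78. An effect on ZnT77C of sequence carried along with the Hr78 alleles was not tested and cannot be told apart from loss of Hr78. Mutant replicates 1 to 4 had 19.8, 21.0, 24.7 and 20.8 CPM of ZnT77C, against 16.0, 14.6, 18.3 and 15.3 CPM in the controls. The genotypes did not overlap, although mutant replicate 1 and control replicate 3 lay close together, and replicate 3 was the highest library of each genotype. Its log2 fold change was 0.43 (standard error 0.09, 95% interval 0.23 to 0.63, adjusted p 0.00897 by edgeR), and the exact permutation test again gave its smallest p of 0.0286. ZnT77C overlaps ND-39, a gene of respiratory complex I on the opposite strand, without sharing exonic bases with it. It shares exonic bases with an insertion of the transposon springer on the opposite strand, which was not analysed here. ND-39 was 0.07 higher on the log2 scale (adjusted p 0.492, edgeR).

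ZnT35C, the zinc exporter of the Malpighian tubules and a target of MTF-1, did not pass the threshold. It had 133, 119, 111 and 117 CPM in mutants and 115, 91.7, 115 and 104 CPM in controls. The genotypes overlapped, because mutant replicate 3 lay below control replicates 1 and 3. With a log2 fold change of 0.17 (standard error 0.08, adjusted p 0.156 by edgeR), its 95% interval ran from slightly below 0 to 0.35, or up to 1.27-fold. An exact permutation test of ZnT35C gave p = 0.143.

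ZnT63C and ZnT86D had nearly the same level in both genotypes. ZnT63C, which exports zinc from midgut cells into the body, had 88.0, 84.4, 86.1 and 87.8 CPM in mutants and 99.2, 83.9, 87.5 and 91.2 CPM in controls. Its log2 fold change was -0.06 (95% interval -0.18 to 0.05, adjusted p 0.428 by edgeR). The control libraries spread more widely, with a coefficient of variation of 1.94% in mutants and 7.22% in controls, and control replicate 1 was the highest. ZnT86D, a relative of mammalian ZnT7 that supplies zinc to the secretory pathway, was at 84.3, 77.5, 81.8 and 82.2 CPM in mutants and 86.3, 79.4, 82.0 and 88.4 CPM in controls. Its log2 fold change was -0.04 (95% interval -0.15 to 0.06, adjusted p 0.542 by edgeR). As ratios of mutant to control, the intervals of ZnT63C and ZnT86D ran from 0.883 to 1.04 and from 0.902 to 1.04.

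**Figure D2:**
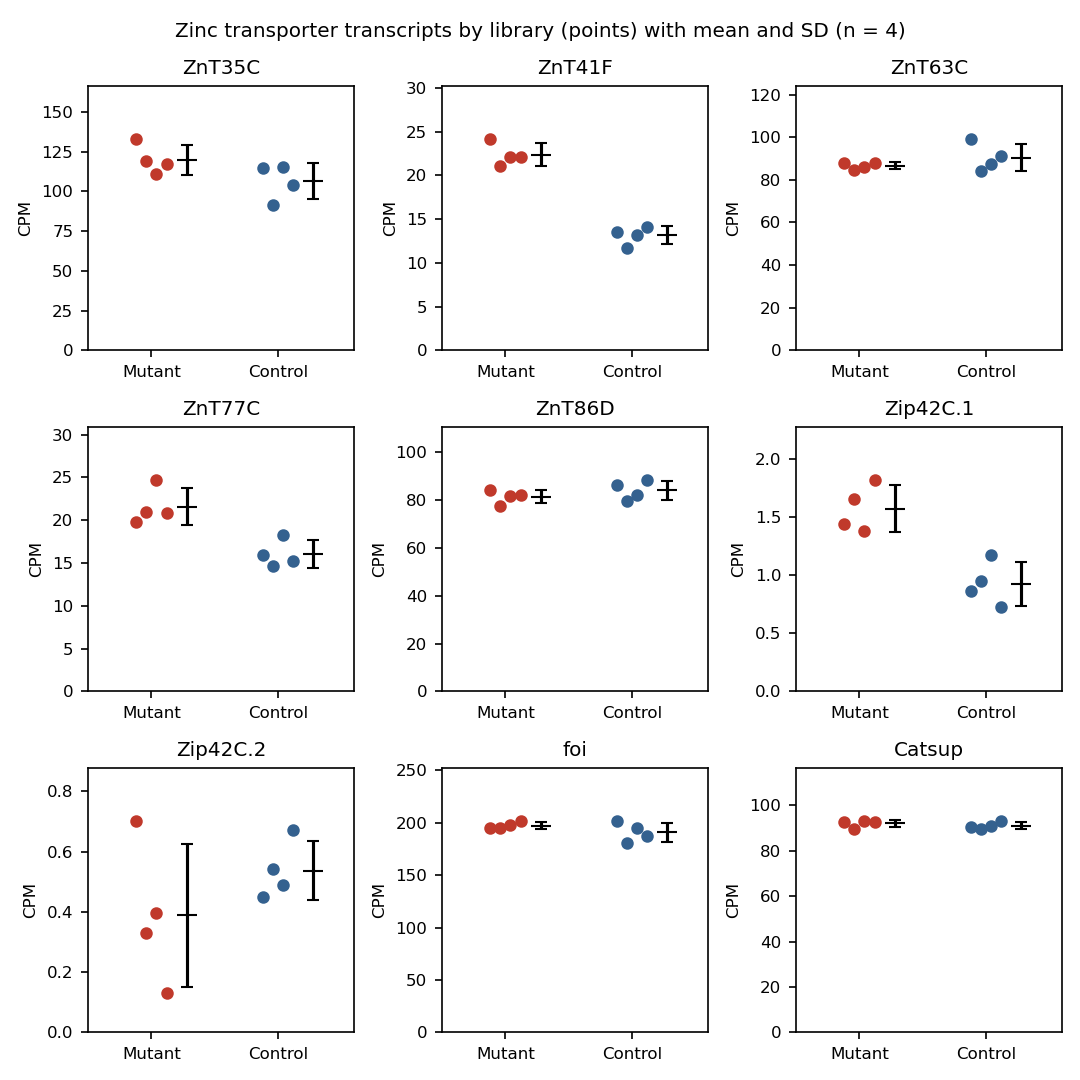
CPM of the 9 zinc transporters in each library (vertical axes start at 0), with mutants on the left and controls on the right; points are libraries and black marks are the mean with SD (n = 4). The genotypes stand apart for ZnT41F, ZnT77C and Zip42C.1 and overlap for the other 6 genes.

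The ZIP genes at 42C are neighbours on chromosome arm 2R and encode zinc importers of the gut surface. Both were rare transcripts in whole females. Zip42C.1 had 47, 45, 35 and 42 counts in mutants, against 23, 21, 24 and 14 counts in controls. On the CPM scale these were 1.43, 1.65, 1.38 and 1.82 in mutants and 0.858, 0.948, 1.17 and 0.723 in controls, with no overlap between the genotypes. Zip42C.1 was 0.76 higher on the log2 scale (standard error 0.21, 95% interval 0.30 to 1.21, adjusted p 0.0267 by edgeR), and the exact permutation p was 0.0286. The direction held in all 15 alternative settings, but the call was lost without mutant replicate 4 (adjusted p 0.0718), control replicate 1 (0.0658), control replicate 2 (0.0558) or control replicate 4 (0.0727), in edgeR fits of the remaining 7 libraries. With the replicate number as a block the adjusted p was 0.0529, and DESeq2 gave 0.0528. Zip42C.1 was higher in the mutants while the summed level of the 9 midgut markers, of which alphaTry was the largest part, was lower. The part of midgut content in this result was not tested.

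Zip42C.2 had 23, 9, 10 and 3 counts in mutants and 12, 12, 10 and 13 counts in controls. Its levels were 0.702, 0.330, 0.395 and 0.130 CPM in mutants and 0.448, 0.542, 0.489 and 0.671 CPM in controls, so the mutants surrounded the controls. For Zip42C.2 the fit gave a log2 fold change of -0.40 (95% interval -1.29 to 0.49, adjusted p 0.526 by edgeR). As a ratio of mutant to control this interval ran from 0.409 to 1.41, the widest of the 9 members. The difference between Zip42C.1 and Zip42C.2 in their response was not tested.

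The other neighbours of this pair differed little. chk, on the other side of Zip42C.1, encodes a monocarboxylate transporter and had a log2 fold change of -0.17 (adjusted p 0.0359 by edgeR). The call of chk was lost without mutant replicate 1, 2 or 3 or control replicate 2, 3 or 4, with adjusted p of 0.0546 to 0.0964 (edgeR). It was also lost with upper quartile scaling (0.0984), with the transcript length offset (0.343) and with that offset and the replicate block (0.294), and the offset brought the log2 fold change of chk to -0.07. hlk, on the other side of Zip42C.2, had a log2 fold change of 0.06 (adjusted p 0.513, edgeR).

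The other ZIP members, foi and Catsup, differed little between the genotypes. foi (fear of intimacy) is needed for gonad assembly and for the fusion of tracheal branches in the embryo, and encodes a ZIP protein of the cell surface. It had 195, 195, 198 and 202 CPM in mutants and 202, 181, 195 and 188 CPM in controls. Between genotypes foi differed by 0.05 on the log2 scale (95% interval -0.05 to 0.14, adjusted p 0.494 by edgeR). Catsup, a relative of mammalian ZIP7 in internal membranes, is also known as a negative regulator of tyrosine hydroxylase and so of catecholamine synthesis. It had 92.6, 89.6, 93.1 and 92.7 CPM in mutants and 90.4, 89.4, 90.9 and 93.0 CPM in controls, with a log2 fold change of 0.02 (95% interval -0.06 to 0.10, adjusted p 0.779 by edgeR). As ratios of mutant to control, these intervals ran from 0.966 to 1.10 for foi and from 0.957 to 1.07 for Catsup. Catsup shares exonic bases with Ttc19 on the opposite strand, and without known strand handling their reads cannot be told apart. Ttc19 was at 17.0 ± 1.12 CPM in mutants and 14.7 ± 0.853 CPM in controls (SD, n = 4 each), well below Catsup. Its log2 fold change was 0.21 (unadjusted p 0.0169, adjusted p 0.0728, edgeR).

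Levels of different members were compared per kilobase of exonic length. In mutants the order ran from ZnT35C (56.0 ± 4.39 CPM per kb) through Catsup (54.2 ± 0.951), foi (46.9 ± 0.747), ZnT86D (40.7 ± 1.43), ZnT63C (26.6 ± 0.516), ZnT41F (9.09 ± 0.533), ZnT77C (8.50 ± 0.855) and Zip42C.1 (1.22 ± 0.156) to Zip42C.2 (0.304 ± 0.186 CPM per kb, SD, n = 4). Within the mutants, ZnT35C and Catsup overlapped, as did ZnT41F and ZnT77C, and the other neighbours in the order did not overlap. In controls Catsup was first at 53.6 ± 0.894 CPM per kb and ZnT35C second at 49.7 ± 5.18, and ZnT77C (6.33 ± 0.628) stood above ZnT41F (5.35 ± 0.422). Catsup and ZnT35C, ZnT35C and foi, and foi and ZnT86D overlapped in controls. The 3 members that rose were thus among the 4 with the lowest levels per length, and the 5 most abundant members did not pass the threshold.

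The members that rose held small shares of the summed level of the listed members of their family in both genotypes. These sums leave out the 8 zinc transporters outside the list, such as Zip99C (55.8 CPM per kb in mutants) and ZnT49B (28.1). ZnT41F made up 6.45 ± 0.154% of the summed level per length of the 5 ZnT members in mutants and 4.08 ± 0.166% in controls. ZnT77C made up 6.06 ± 0.766% in mutants and 4.83 ± 0.392% in controls. Of the sum of the 4 ZIP members, Zip42C.1 held 1.19 ± 0.150% in mutants and 0.717 ± 0.147% in controls. ZnT35C held the largest share of the ZnT sum in both genotypes, at 39.7 ± 1.81% in mutants and 37.8 ± 1.84% in controls (SD, n = 4 each). The summed level of the 5 ZnT members was 141 ± 5.47 CPM per kb in mutants and 131 ± 8.67 in controls, and the ranges of 137 to 149 and 119 to 139 CPM per kb overlapped. The 4 ZIP members summed to 103 ± 1.43 CPM per kb in mutants and 100.1 ± 2.36 in controls, of which Catsup held 52.8% in mutants and 53.5% in controls.

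**Figure D3:**
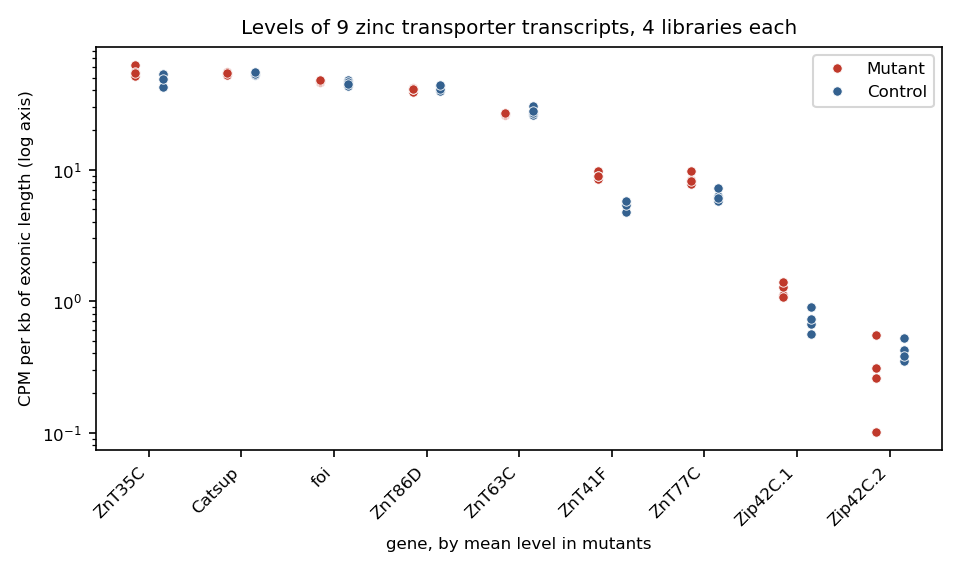
Level per kilobase of exonic length (CPM per kb, log axis) of the 9 zinc transporters in order of their mean in mutants, with mutants left and controls right of each position; each point is 1 of 4 libraries. The genes fall into 5 at 25.8 CPM per kb or more, 2 between 4.75 and 9.82, and the 2 genes at 42C at 1.41 or less.

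Zinc transporter genes outside the 9 also included some that rose and none that fell. Of 8 such genes, 7 were tested, 3 rose and none fell, where 8.46% of all tested genes rose and 11.1% fell. Unadjusted p under 0.05 gave 3 higher and 0 lower, and DESeq2 3 higher and 0 lower. This list too was chosen with earlier results of these data known, so its counts are a description only. Zip89B, a zinc importer of the gut, had 12.6, 9.35, 11.8 and 12.6 CPM in mutants and 8.73, 8.80, 7.72 and 7.44 CPM in controls, and rose by 0.50 on the log2 scale (standard error 0.11, adjusted p 0.0113 by edgeR). Zip71B, a zinc importer of the Malpighian tubules, had 16.7, 18.3, 20.2 and 15.7 CPM in mutants and 11.5, 13.6, 15.4 and 12.5 CPM in controls. Zip71B rose by 0.42 on the log2 scale (standard error 0.11, adjusted p 0.0199 by edgeR), and its call was lost without mutant replicate 3 (0.0603) or control replicate 4 (0.0522). Zip102B had 91.6, 87.5, 89.1 and 87.7 CPM in mutants and 67.8, 75.3, 79.9 and 74.7 CPM in controls, with a log2 fold change of 0.26 (standard error 0.05, adjusted p 0.00605 by edgeR). For each of these 3 genes every mutant library lay above every control library, as for 11.7% of all genes tested. Zip71B lies on chromosome arm 3L, as does Hr78, and Zip89B lies on 3R, the other arm of that chromosome. For both, an effect of sequence carried along with the Hr78 alleles was not tested and cannot be told apart from loss of Hr78.

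ZnT49B, Zip48C, Zip88E and Zip99C did not pass the threshold, with log2 fold changes of 0.07, -0.03, -0.09 and -0.05 and adjusted p of 0.274 to 0.690 (edgeR). Zip99C is known to move iron into the secretory pathway in spite of its family. ZnT33D was too rare to be tested, with 1, 26, 4 and 2 counts in mutants and 2, 0, 4 and 2 counts in controls, and its high library was mutant replicate 2, the library with male-type transcripts. Zip71B and Zip88E share exonic bases with mRpL39 and Cp190 on the opposite strand, so their counts may hold reads of those genes. mRpL39 had a log2 fold change of 0.03 (adjusted p 0.666, edgeR). Cp190 had a log2 fold change of -0.15 (unadjusted p 0.0180, adjusted p 0.0759, edgeR), at 247 ± 16.0 CPM in mutants and 273 ± 10.2 CPM in controls, against 24.2 ± 1.29 CPM in mutants and 25.7 ± 2.20 CPM in controls for Zip88E (SD, n = 4 each).

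Metallothionein genes, whose products bind zinc and copper, were higher in the mutants. Of 5 tested genes in a list of metallothioneins and MTF-1, 4 rose and none fell, where 8.46% of all tested genes rose and 11.1% fell. At an unadjusted p under 0.05 and by DESeq2, 4 were higher and 0 lower, and the median log2 fold change was 0.87. The list was chosen with earlier results of these data known, so the count is a description only. MtnA, the most abundant of them, had 673, 658, 636 and 567 CPM in mutants and 553, 430, 536 and 478 CPM in controls, with a log2 fold change of 0.34 (standard error 0.08, adjusted p 0.0167 by edgeR). MtnA no longer passed once a transcript length trend was offset (adjusted p 0.0600), and MtnA and MtnC did not pass with that offset and the replicate block (0.0825 and 0.0762). MtnC rose by 0.87, MtnB by 1.87 and MtnD by 2.77 on the log2 scale, with adjusted p between 8.49e-06 and 0.00517 (edgeR). MTF-1, the gene of the factor that activates them and ZnT35C, was at 56.1 ± 2.51 CPM in mutants and 61.2 ± 6.57 CPM in controls, which is a log2 fold change of -0.13 (adjusted p 0.247, edgeR). ZnT35C, a known MTF-1 target among the zinc transporters, had the smaller log2 fold change of 0.17 given above, short of the threshold. MtnA, MtnB, MtnC and MtnD lie on 3R, the other arm of the chromosome that holds Hr78. An effect on these genes of sequence carried along with the Hr78 alleles was not tested and cannot be told apart from loss of Hr78.

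Among genes of copper and iron handling and of zinc storage, Tsf1 and or rose and cm fell, where 19.6% of all tested genes passed in either direction. Of 6 copper genes none passed by edgeR in either direction (2 higher and 0 lower at an unadjusted p under 0.05, and 0 by DESeq2), and their median log2 fold change was 0.10. Of 10 tested iron genes Tsf1, a transferrin gene, rose by 1.36 on the log2 scale, and none fell. Tsf1 had 616, 247, 214 and 253 CPM in mutants and 152, 131, 89.6 and 146 CPM in controls, so that mutant replicate 1 stood far above the other mutants. Leaving mutant replicate 1 out lowered the log2 fold change of Tsf1 to 0.87 (adjusted p 0.0271, edgeR). The adjusted p of Tsf1 over all 8 libraries was 0.0474 (edgeR), and the call was lost without any 1 of 7 of the 8 libraries (adjusted p 0.0513 to 0.113), the exception being mutant replicate 1. The 16 genes of zinc storage granules and pigment granules help to make or fill the granules in which tubule cells keep zinc and eye cells keep pigment. Of these, or rose by 0.29 and cm fell by 0.15 on the log2 scale (adjusted p 0.00645 and 0.0495, edgeR), and 14 did not pass. Both genes encode subunits of the AP-3 vesicle coat. The call of cm was lost without any 1 of the 8 libraries (adjusted p 0.0560 to 0.137), with upper quartile scaling (0.138) and without a filter on low counts (0.0542), whereas that of or was kept in all 15 alternatives. The ABC transporter genes w and st, which are needed for zinc storage in the tubules, had log2 fold changes of 0.09 and 0.17 (adjusted p 0.545 and 0.303, edgeR).

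**Figure D4:**
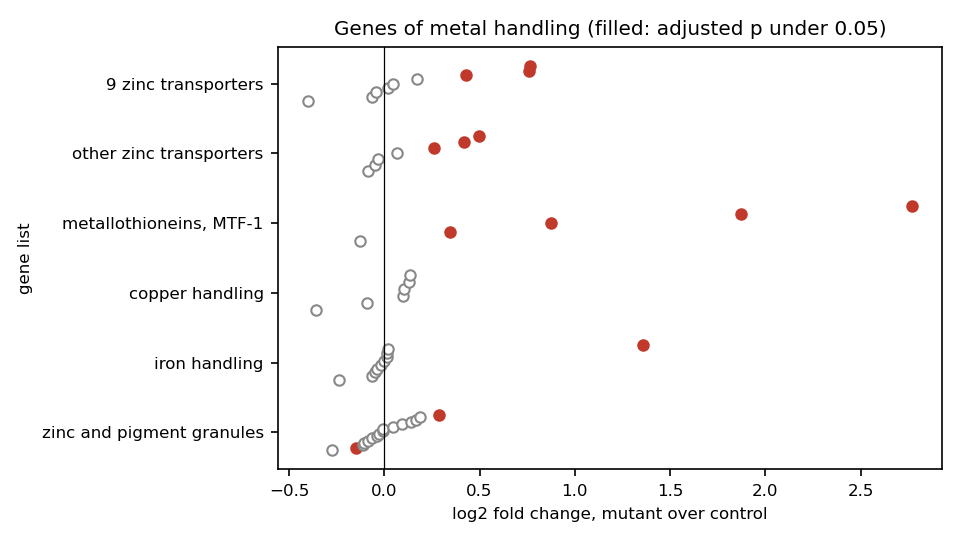
Log2 fold change (mutant over control, horizontal axis) of each tested gene in 6 lists of metal handling; each point is a gene, and filled points have an adjusted p under 0.05 (edgeR). Zinc transporters and metallothioneins with filled points lie to the right of 0, up to 2.77 for MtnD.

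The genes whose pattern over the 8 libraries was most like that of ZnT41F were CAH2, CG14223 and Mgstl. Pearson correlations of log2 CPM with ZnT41F were 0.994, 0.991 and 0.991, given as a description only, since the 8 libraries fall into 2 genotypes and genes with a similar shift between them score high. CAH2 encodes a carbonic anhydrase, a class of zinc enzymes, and was at 101 ± 5.63 CPM in mutants and 68.2 ± 3.51 CPM in controls. CAH2 lies on 3L, as does Hr78, and an effect on it of sequence carried along with the Hr78 alleles was not tested. CG14223 was at 11.9 ± 0.224 CPM in mutants and 5.78 ± 0.405 CPM in controls. Mgstl, a microsomal glutathione transferase, was at 125 ± 12.2 CPM in mutants and 54.8 ± 3.75 CPM in controls (SD, n = 4 each).

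Without mutant replicate 2, the library with male-type transcripts, the same 3 members rose and none fell, with log2 fold changes of 0.80 for ZnT41F, 0.44 for ZnT77C and 0.73 for Zip42C.1 and adjusted p of 0.000232, 0.0157 and 0.0456 (edgeR). ZnT41F passed in all 15 alternative settings with log2 fold changes of 0.72 to 0.81 and adjusted p of 7.18e-14 to 0.000802, and ZnT77C in all 15 with 0.35 to 0.49 and adjusted p of 0.00201 to 0.0267.

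**Figure D5:**
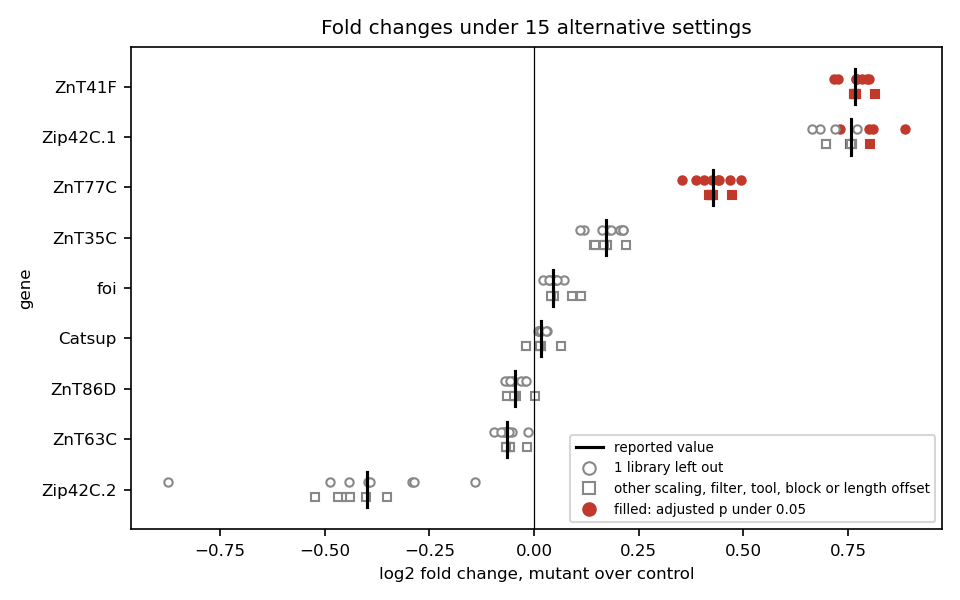
Log2 fold change (mutant over control, horizontal axis) of the 9 zinc transporters under 15 alternative settings; circles leave out 1 of the 8 libraries, squares use another scaling, filter, tool, block or length offset, black lines are the reported values, and filled points have an adjusted p under 0.05. All points of ZnT41F and ZnT77C are filled, 7 of those of Zip42C.1 are, and Zip42C.2 spreads from -0.87 to -0.14.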

How the data were processed

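For 8 libraries of polyadenylated RNA, the authors deposited raw counts per gene in 1 table, as whole numbers without normalization. The submitters' processing notes name the build dm3 and DESeq, without a role or version; nothing used here states the aligner, the counting, the annotation or the use of strand. Column names gave the sample of each column (0 unmapped). The row CG00000 names no gene (0.0154% to 0.0176% of a library) and was left out. CG numbers were matched to symbols through the RefSeq table of Release 6 (11482 rows by locus tag, 456 by synonym; all members by locus tag). Exonic and transcript lengths and neighbours come from the Ensembl annotation of the same release, whose build differs from dm3, so no coordinates are given.

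Counts were filtered with filterByExpr (minimum count 10), scaled with TMM and tested two-sided with edgeR 4.0.16 (robust quasi-likelihood, R 4.3.3), with Benjamini-Hochberg adjustment over 10525 genes and a threshold of 0.05. Standard errors were derived from the log2 fold change and the F statistic. DESeq2 1.42.0 was an alternative, beside RLE and upper quartile scaling, no filter, a replicate block, a lowess offset for transcript length, and leaving out each library. The fit was also run on counts simulated from the means and fitted dispersions of these genes, with planted changes. Such counts carry no differences in tissue content and no library with male-type transcripts, so the run does not bear on these. Labels call the libraries biological replicates. Within a genotype all pairs of libraries differed beyond sampling noise (chi-square per degree of freedom 10.4 to 36.3). Members and lists were chosen with earlier results of these data known. The named genes are the 9 members, other zinc transporters, up to 4 called genes per list, Hr78, btl and the 3 genes most correlated with the member of smallest adjusted p; genes overlapping or next to members were added after their values were seen. btl had a log2 fold change of -0.05 (adjusted p 0.790). Of the listed genes, MtnE, MtnF, Ctr1C and nos were not analysed here. Of 6 ovary markers 0 were called by edgeR or DESeq2, and 0 had an unadjusted p under 0.05. Floors and intervals cover counting error and the spread between these libraries only.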

Additional observations from a re-analysis of the deposited data

Results flagged for a closer look

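In 3 of 34 groups of 4 libraries (9 members and 8 other zinc transporters, in each genotype), 1 library lay far from the others, with a gap to its nearest neighbour above Dixon's critical share of the group's range at the 95% level; chance alone flags about 1 in 20 groups. Catsup was at 89.6 CPM in mutant replicate 2 and 92.6 to 93.1 CPM in the other mutants (gap 0.862 of the range), a small difference in a gene with a coefficient of variation of 1.75% there. ZnT33D was at 0.953 CPM in mutant replicate 2 and 0.0305 to 0.158 CPM in the other mutants (gap 0.862 of the range), in the library whose male markers summed to 121 CPM. Zip48C was at 33.8 CPM in control replicate 1 and 31.4 to 31.6 CPM in the other controls (gap 0.916 of the range).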

How the results depend on the processing

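The calls of ZnT41F and ZnT77C held in all 15 alternatives, and 3 or 2 members rose and 0 fell in every one. Zip42C.1 kept its direction but not its call without a filter on low counts (log2 fold change 0.76, adjusted p 0.0680), with the replicate block (0.76, 0.0529), with block and length offset together (0.70, 0.0840) and by DESeq2 (0.76, 0.0528), and ranged from 0.66 to 0.89 over the fits that left out 1 library. Directions of members at or near 0 turned: ZnT86D to 0.00145 with upper quartile scaling, and Catsup to -0.0183 with the length offset, alone or with the block. Zip48C turned to 0.0142 with upper quartile scaling, Zip99C ranged from -0.0797 to 0.00922 over the fits without 1 library (the positive value without mutant replicate 2), and btl to 0.00473 with the length offset, to 0.00487 with that offset and the block, and ranged from -0.12 to 0.0158 over the fits without 1 library (the positive value without control replicate 2). Over all genes, upper quartile scaling gave 1499 higher and 872 lower, against 890 and 1173 (63.2% against 43.1% of calls higher); with the length offset 773 rose and 782 fell. Leaving out 1 library gave 604 to 760 higher and 872 to 986 lower. Ordering members by CPM without length left 4 of 9 in place in mutants and 5 of 9 in controls. Of the metallothionein list, 2 rose with block and length offset together. Of the copper list, 2 rose with upper quartile scaling, 1 rose and 1 fell with the block, and 1 fell with block and offset. The call of Tsf1 (iron) was lost without a filter, with the block, with the offset and with both (0 rose), and leaving out 1 library gave 0 to 1. Of the granule list 3 rose with upper quartile scaling and 2 with the block, the offset or both, while 0 fell with upper quartile scaling or no filter; leaving out 1 library gave 1 to 2 higher and 0 lower. The cause of these moves was not tested.

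The replicate numbers were not taken as pairs: deviations of same-numbered libraries correlated at 0.21, -0.05, -0.10 and 0.04, and only mutant and control replicate 1 each correlated best with their own number. With the replicate block, 1014 genes rose and 1391 fell. Depth limits Zip42C.1 and Zip42C.2, which had 3 to 47 counts per library.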
